A study of Capra hircus with 2 samples.

Results

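The let-7 and miR-98 family comprises small RNAs that share the seed GAGGTAG at bases 2 to 8, the stretch with which a miRNA mainly recognises its targets. Its members were taken from the known miRNAs of goat endometrium as every name with let-7 followed by a letter and every name of miR-98, with repeated names counted once. This gave 17 of 587 distinct names with 15 distinct sequences, of which 9 names belong to the 5p arm of a hairpin and 8 to the 3p arm. Of the 9 members let-7a, let-7b, let-7c, let-7d, let-7e, let-7f, let-7g, let-7i and miR-98, 6 had an entry under their own name, and let-7e, let-7f and let-7g were not analysed here.

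Small RNA was sequenced from the endometrium of Xinong Saanen dairy goats of 24 months that had borne young before, were brought into synchronous estrus and mated naturally. The pre-receptive endometrium was collected on gestational day 5 (P library) and the receptive endometrium on day 15 (R library). In each case it came from the anterior wall of the uterus. By the paper's methods, 9 samples from each phase were combined into 3 and sequenced 3 times, but the deposit gives 1 value per phase, referred to as 1 library, so that no replicate could be used. The comparison asks how miRNA levels differ between an endometrium that is not yet ready for the embryo and one that is. The values are normalized expression (NE), the reads of a name divided by 1 size factor per library, where 1 read was worth 0.860 NE in R against 1.16 NE in P. These deposited values do not follow the formula in the paper's methods, by which NE would be proportional to the share of a name in the clean reads. The reads recovered for known miRNAs came to 1904242 for R and 4046632 for P. With 1 library per phase, the intervals and Fisher's exact tests here compare these 2 libraries and not the phases, and cover counting error only. Amplified reads that carry no molecular identifier may stem from the same molecule, so the intervals may be too narrow even for counting error.

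In animals, let-7 RNAs are abundant in differentiated tissue and scarce in early embryonic cells, where the RNA-binding protein LIN28 blocks their maturation. Their known targets include the growth-promoting genes HMGA2, MYC and RAS and LIN28 itself. Each member is cut from a hairpin whose 5p arm is the abundant, seed-bearing strand, while most of the 3p arm is discarded.

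The listed sequences are shown because the members differ by few bases and the assignment of a read turns on those. Capitals mark the seed, bases 2 to 8, and U is written as T. The 5p sequences were as follows.
oar-let-7a: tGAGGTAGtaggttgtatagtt
oar-let-7c: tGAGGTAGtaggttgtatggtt
oar-let-7b_R+1: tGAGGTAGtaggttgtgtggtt
oar-let-7b_R+2: tGAGGTAGtaggttgtgtggtta
mmu-let-7c-5p_R+2_1ss17AG: tGAGGTAGtaggttgtgtggtttt
bta-let-7d: aGAGGTAGtaggttgcatagtt
sha-let-7i_R+1: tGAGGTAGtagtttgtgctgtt
oar-let-7a_2ss11GA19AT: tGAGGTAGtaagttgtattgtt
The 3p sequences do not carry the let-7 seed, and bases 2 to 8 are in capitals for them too.
hsa-let-7b-3p_1ss22CT: cTATACAAcctactgccttcct
mmu-let-7d-3p: cTATACGAcctgctgcctttct
hsa-miR-98-3p_1ss22CT: cTATACAActtactactttcct
mmu-let-7i-3p: cTGCGCAAgctactgccttgct
mmu-let-7c-2-3p_L-1R+1: tATACAATctactgtctttcct
mmu-let-7c-1-3p: cTGTACAAccttctagctttcc
hsa-let-7a-2-3p_R+1: cTGTACAGcctcctagctttcct

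The prefix of a name is the species of the miRBase entry it was matched to, and R+1 or L-1 gives bases gained or lost at the right or left end. All 9 of the 5p names had the seed GAGGTAG, which occurred in 10 of the 587 known names and in 0 of the 643 sequences of predicted candidates. The remaining name with this seed was mml-miR-6134_R+4_1ss18GT, with 1.29 NE in R and 1.16 NE in P, that is, 1.5 reads and 1 read. miR-202, which is sometimes grouped with let-7, was listed by its 5p arm alone, without this seed, at 3.44 NE in R and 1.16 NE in P. Among the 3p names, hsa-let-7b-3p_1ss22CT and hsa-miR-98-3p_1ss22CT shared bases 2 to 8, as did mmu-let-7i-3p and cgr-let-7i_R+1, which have the same sequence.

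Counted from 1 at the 5′ end and with the base of let-7a first, oar-let-7c differed from oar-let-7a by A19G and oar-let-7b_R+1 by A17G and A19G. bta-let-7d differed by T1A and T16C, and sha-let-7i_R+1 by G12T, A17G, T18C and A19T. All these positions lie outside the seed. In 2 cases the name and the sequence of an entry pointed to different members. oar-let-7a_2ss11GA19AT carries G11A and A19T, the bases by which the 5p strand of mammalian miR-98 is known to differ from let-7a, and it stands directly before hsa-miR-98-3p_1ss22CT in the listing, at places 251 and 252. mmu-let-7c-5p_R+2_1ss17AG begins with all 22 bases of oar-let-7b_R+1 and adds TT. These entries are given under their listed names and, where stated, as miR-98 and let-7b by sequence. A listed sequence stands for a cluster of matching reads, so reads of near-identical members can be counted under 1 name, and the values of single members are uncertain to that extent.

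oar-let-7a was the most abundant member, at 151415 NE in R against 223063 NE in P. It ranked 4 of 587 names in R and 5 of 587 in P. The miR-10a and miR-10b entries ranked above it have the same sequence in the paper. oar-let-7c had 44266 NE in R against 76656 NE in P. oar-let-7b_R+1 was next, at 43451 NE in R against 48908 NE in P. Thus let-7c and let-7b lay close together in R and well apart in P, but in each library the reads of these neighbours in the order differed beyond counting error. sha-let-7i_R+1 had 16462 NE in R and 24830 NE in P, and mmu-let-7i-5p, which has the same sequence, had 16393 and 24754 NE. These let-7i values did not differ beyond counting error in either library. oar-let-7a_2ss11GA19AT, miR-98 by its bases, had 8660 NE in R and 12419 NE in P. oar-let-7b_R+2 had 4229 and 7312 NE, and bta-let-7d had 2938 and 3681 NE. The lowest of the 5p names was mmu-let-7c-5p_R+2_1ss17AG, at 459 NE in R against 381 NE in P. The order of the 5p names by NE was the same in both libraries.

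The 3p names were far lower. hsa-let-7b-3p_1ss22CT had 335 NE in R against 238 NE in P, and mmu-let-7d-3p had 286 NE in R against 264 NE in P. The order of these 3p names was let-7b before let-7d in R, whereas in P they did not differ beyond counting error. hsa-miR-98-3p_1ss22CT had 70.5 NE in R and 39.5 NE in P, on 82 and 34 reads. The let-7i and let-7c names of this arm lay between 31.8 and 49.9 NE in R and between 19.8 and 52.9 NE in P. hsa-let-7a-2-3p_R+1 had 1 read in R and was listed at 0 in P, where a count of 0 allows up to 3 reads or 3.49 NE (one-sided; the two-sided interval drawn below reaches 4.29 NE), so no fold was computed for it.

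Summed over the 5p arm, with the shared let-7i sequence counted at its larger value, the family reached 271881 NE in R against 397250 NE in P. This is a log2 ratio of -0.55 (R to P, 95% exact interval -0.55 to -0.54). In bulk tissue such as this, fewer cells of a type and less RNA per cell cannot be told apart. The direction of this sum depended on the scaling between the libraries. With reads scaled to the clean reads of each library, which is the formula of the paper, the log2 ratio was 0.24, and with reads scaled to all reads listed for known miRNAs it was 0.98. The scalings move all names alike: over the 438 tested names the median log2 ratio lay at 0.03 for NE, 0.81 for the clean reads and 1.55 for the listed reads. Relative to that median the 5p sum was lower in R by 0.58 on the log2 scale under each of these scalings (-0.58 with the median set to 0). Abundant miRNAs as a group lay equally low. Of 55 names outside the family with at least 1000 reads in both libraries, 28 had a lower log2 ratio than the family and 27 a higher one, and their median was -0.56. The family therefore sat in the middle of the abundant names.

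The 5p sum made up 16.6% of the listed reads in R and 8.44% in P. The most abundant names of the libraries were aja-miR-143_1ss22GT, oar-miR-10b_L+1R-1 and oar-miR-10a_R+1_1ss12TA, with log2 ratios of NE of -2.69, -2.16 and -2.09. The paper lists these miR-10a and miR-10b entries with the same sequence, so their ratios do not stand for separate sequences. oar-miR-26a, which completes the top 5 with oar-let-7a, had -1.21. When the entries of miR-143, miR-10a and miR-10b were left out of the total, the 5p sum made up 26.3% of the listed reads in R and 27.1% in P. With this total the log2 ratio of the sum was -0.044.

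Of the 17 names, 16 were above 0 in both libraries and at least 1 NE in one, and were tested. A difference was called at P under 0.05 in Fisher's exact test (two-sided, reads of a name against the remaining clean reads) with an NE ratio beyond 2-fold. On this rule 0 of the 16 family names were called, against 121 of the 438 known names tested (27.6%). The count of 0 held with the exact binomial test that follows NE and with adjusted P-values, but 5 of 16 were called when reads were scaled to clean reads (177 of all 438) and 11 of 16 with the listed reads (266 of all 438), all family calls being higher in R.

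oar-let-7a had a log2 ratio of -0.56 (95% exact interval -0.57 to -0.55). oar-let-7c had -0.79 (-0.81 to -0.78), and oar-let-7b_R+1 had -0.17 (-0.19 to -0.15). The intervals of these 3 names do not overlap, so the difference between them is beyond counting error. The other 5p names lay at -0.59 for both let-7i names, -0.52 for oar-let-7a_2ss11GA19AT, -0.79 for oar-let-7b_R+2 and -0.33 for bta-let-7d, and mmu-let-7c-5p_R+2_1ss17AG at 0.27. On the scale of NE, the interval lay below 0 for 8 of the 9 tested 5p names, against 25.6% of all tested names, and above 0 for 1. Intervals are narrow for abundant names, and of the 55 other names with at least 1000 reads in both libraries the interval lay below 0 for 37. With the clean reads as total, 6 of these 8 family names were higher in R, while oar-let-7c stood at -0.0093 and oar-let-7b_R+2 at -0.0069. With the listed reads as total all 8 were higher in R.

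Of the 7 tested 3p names, the interval lay above 0 for 3, against 26.0% of all tested names, and included 0 for 4. The 3 names were hsa-let-7b-3p_1ss22CT at 0.49 (95% exact interval 0.24 to 0.74), hsa-miR-98-3p_1ss22CT at 0.83 (0.24 to 1.46) and mmu-let-7c-2-3p_L-1R+1 at 0.96 (0.17 to 1.81). Their reads ranged from 19 to 205 in P. The 3p sum was 818 NE in R against 637 NE in P, a log2 ratio of 0.36 (0.21 to 0.51), and it was higher in R under each scaling tried.

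**Figure D1:**
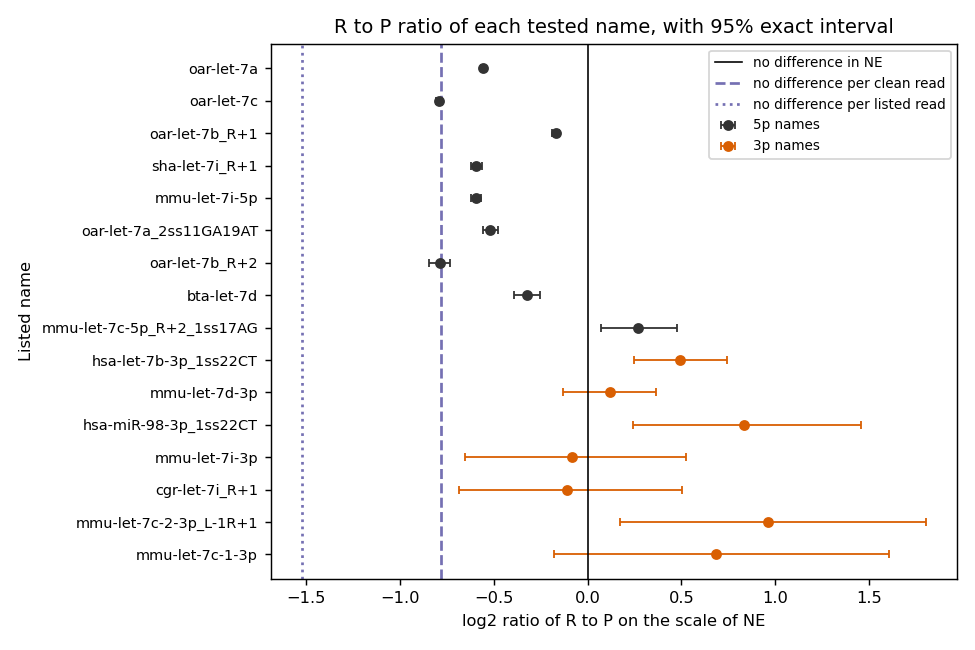
log2 ratio of R to P of NE for the 16 tested family names, 5p in black and 3p in orange, with 95% exact intervals. The solid line is no difference in NE, and the dashed and dotted lines are where no difference lies with reads scaled to clean reads or to the listed reads. Most 5p names stand left of the solid line and right of the dotted line, so their direction depends on the scaling.

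The make-up of the family does not depend on the scaling. By listed name, let-7a held 58.9% of the 5p reads of R (95% exact interval 58.7% to 59.0%) against 59.3% of those of P (59.1% to 59.4%). let-7b made up 17.5% (17.4% to 17.7%) of R against 14.2% (14.0% to 14.3%) of P. let-7c made up 16.5% (16.3% to 16.6%) of R against 19.4% (19.3% to 19.5%) of P. let-7b and let-7c thus changed places as the second most abundant member, with differences (R minus P) of 3.38 percentage points for let-7b and -2.94 for let-7c, while that of let-7a was -0.401. The change of places depends on adding the longer entry oar-let-7b_R+2 to let-7b, since oar-let-7c stood above oar-let-7b_R+1 alone in both libraries. let-7i held 6.05% in R and 6.25% in P, and let-7d held 1.08% in R and 0.927% in P. Because reads that match several entries appear to be divided among them, the let-7i names were also summed, which gave let-7i 11.4% in R and 11.7% in P and kept let-7b above let-7c in R (16.5% and 15.5%) and below it in P (13.3% and 18.3%). Grouped by sequence, miR-98 made up 3.19% (3.12% to 3.25%) of R against 3.13% (3.07% to 3.18%) of P, and these intervals overlap.

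Set against oar-let-7a in the same library, oar-let-7b_R+1 had a log2 odds ratio of 0.39 (95% interval 0.37 to 0.41) from P to R, bta-let-7d had 0.23 (0.16 to 0.30) and oar-let-7c had -0.23 (-0.25 to -0.21). The forms of let-7b did not agree: oar-let-7b_R+2 had -0.23 (-0.29 to -0.18) and mmu-let-7c-5p_R+2_1ss17AG 0.83 (0.63 to 1.03). sha-let-7i_R+1 lay at -0.03 (-0.064 to -0.0044) and mmu-let-7i-5p at -0.04 (-0.065 to -0.0059), small values whose intervals lay below 0. For oar-let-7a_2ss11GA19AT, at 0.039, the interval included 0 (-0.0013 to 0.079). The proportion of the miR-98 sequence to let-7a therefore did not differ beyond counting error, although a difference as small as that of let-7i could be missed.

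**Figure D2:**
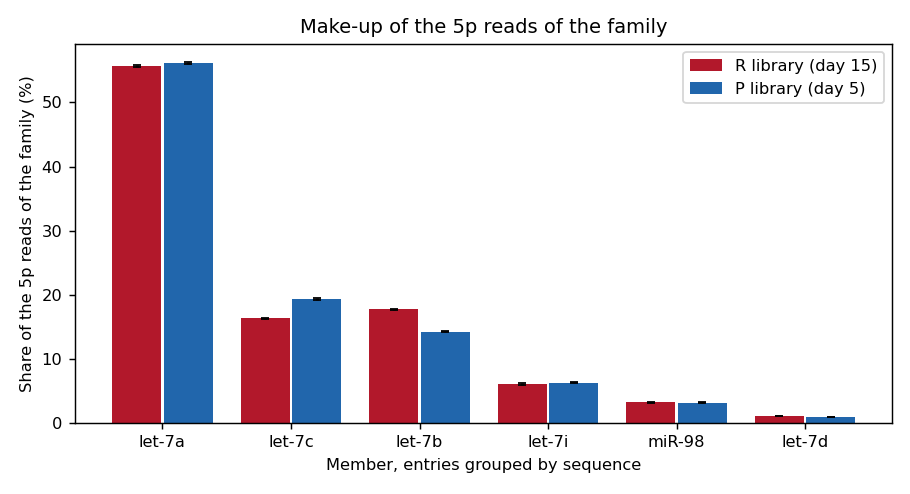
Share of each member in the 5p reads of the family in the R library (red) and the P library (blue), entries grouped by sequence and the shared let-7i sequence counted at its larger value. Bars start at 0, and error bars are 95% exact (Clopper-Pearson) intervals. let-7b is above let-7c in R and below it in P.

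let-7b was listed in 3 forms that differ at the 3′ end, where untemplated bases are often added to let-7 RNAs. The form of 22 bases, oar-let-7b_R+1, held 90.3% of the let-7b reads of R (95% exact interval 90.0% to 90.5%) against 86.4% of those of P (86.1% to 86.7%). The form with an added A, oar-let-7b_R+2, held 8.79% (8.55% to 9.02%) of R against 12.9% (12.6% to 13.2%) of P. The form with added TT, mmu-let-7c-5p_R+2_1ss17AG, held 0.954% (0.875% to 1.04%) of R against 0.672% (0.601% to 0.748%) of P. The A form was thus a smaller part of let-7b in R and the TT form a larger one, each beyond counting error. Without the entry listed under let-7c, the A form held 8.87% in R and 13.0% in P.

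The arms of a hairpin can be compared within a library, without any scaling. The 3p arm held 0.300% of the family reads of R (95% exact interval 0.281% to 0.320%) against 0.160% of those of P (0.147% to 0.174%), a 1.87-fold higher odds in R. let-7b had 390 reads of the 3p arm against 55450 of the 5p arm in R, and 205 against 48343 in P. The 3p share was thus 0.698% against 0.422%, a log2 odds ratio of 0.73 (95% interval 0.49 to 0.97; Fisher's exact test, adjusted P = 1.5e-08). let-7d had the largest 3p share, 8.88% in R against 6.69% in P, with a log2 odds ratio of 0.44 (0.19 to 0.70; exact test, adjusted P = 0.00181). let-7i had 0.300% in R against 0.213% in P, a log2 odds ratio of 0.50 (0.10 to 0.89; exact test, adjusted P = 0.0361). That value sums 2 entries of equal sequence in each arm. With only the more abundant entry of each arm the log2 odds ratio was 0.52 (-0.04 to 1.09; exact test, adjusted P = 0.155), on fewer reads, and did not pass, and over all alternatives its adjusted P ranged from 0.0266 to 0.155. let-7c had 0.167% in R against 0.0543% in P, a log2 odds ratio of 1.62 (1.06 to 2.18; exact test, adjusted P = 1.5e-08).

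In all 4 let-7 hairpins tested, the 3p share was larger in the R library at an adjusted P under 0.05. Of the 90 hairpin names with both arms listed and at least 10 reads of the less abundant arm, 35 (38.9%) had a larger share of that arm in R by the same rule, and 6 had a smaller one. The median log2 odds ratio was 0.61 over the let-7 hairpins and 0.57 over the other 86, of which 46 exceeded let-7d. The let-7 hairpins therefore moved in the direction that was common in these libraries, with a similar median. let-7c, at 1.62, lay above the upper quartile of the 90 hairpins (1.12). P-values were adjusted by the Benjamini-Hochberg method over the 90 hairpins, and for the alternatives over the hairpins of each. These were 89 with only the more abundant entries, 91 by sequence and 57 with at least 50 reads of the less abundant arm. With 1 3p entry of let-7c counted with let-7a, as below, they were 91.

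The 3p entry mmu-let-7c-2-3p_L-1R+1 has a sequence that mammals also have, apart from its ends, in hairpins of let-7a. Counted with let-7a, an assignment chosen after seeing the data, let-7a had 51 reads of the 3p arm against 186161 in R and 19 against 202487 in P, a log2 odds ratio of 1.55 (0.79 to 2.31), and let-7c kept 1.47 (0.64 to 2.30). Grouped by sequence, miR-98 had 82 reads of the 3p arm against 10072 in R and 34 against 10678 in P. This is a share of 0.808% in R against 0.317% in P, with a log2 odds ratio of 1.35 (0.78 to 1.93; exact test, adjusted P = 9.7e-06). In pairing energies computed with RNAduplex, the miR-98 sequence bound most strongly to hsa-miR-98-3p_1ss22CT among the 3p sequences (-21.8 kcal/mol, next -20.3 kcal/mol for let-7b). That 3p sequence in turn had a lower energy with oar-let-7a (-25.5 kcal/mol) and with the 5p sequences of let-7b and let-7c (-25.2 kcal/mol each). The miR-98 sequence ranked 6 of 8 for it, so pairing alone does not settle the assignment.

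**Figure D3:**
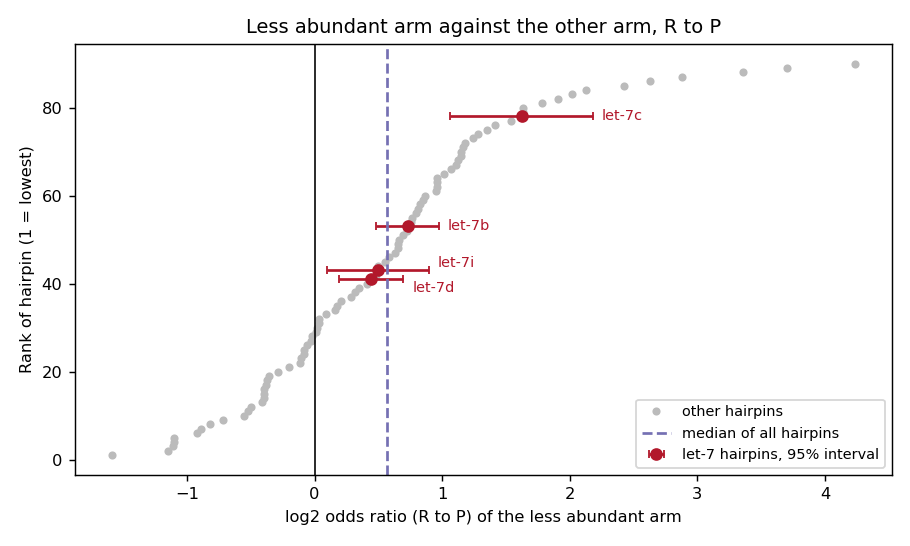
log2 odds ratio (R to P) of the less abundant arm against the other arm for each of 90 hairpins, ordered by value. The let-7 hairpins are red with 95% intervals, other hairpins are grey, and the dashed line is the median of all 90. The 4 let-7 hairpins lie right of 0, and let-7c is the farthest at 1.62.

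Several let-7 genes lie beside other miRNA genes. In the RefSeq annotation of goat assembly ARS1.2, which holds 9 let-7 and miR-98 genes, MIRLET7C stands between MIR125B and MIR99A, MIRLET7E beside MIR99B, MIRLET7A beside MIRLET7B and MIRLET7F beside MIRLET7D. In the let-7c cluster, oar-miR-99a_R+2 had 3851 NE in R against 4666 NE in P, a log2 ratio of -0.28 against -0.79 for oar-let-7c. hsa-miR-125b-5p had 16828 and 27259 NE, a log2 ratio of -0.70. Set against each other within the libraries, let-7c to miR-99a had a log2 odds ratio of -0.52 (95% interval -0.58 to -0.45) and let-7c to miR-125b one of -0.10 (-0.13 to -0.06). The reads of these mature sequences were therefore not in the same proportion in the 2 libraries, beyond counting error. Which genes the reads come from was not tested. hsa-miR-99b-5p_R-1, next to the let-7e gene, had 2471 and 3145 NE and a log2 ratio of -0.35. hsa-miR-100-5p, a relative of miR-99 that lies in a let-7 cluster in mammals, had 416 NE in R against 915 NE in P, a log2 ratio of -1.14 (-1.30 to -0.97), and was called. This call is lost with the clean reads (-0.35), the listed reads (0.39) or the listed reads without the 3 abundant miRNAs (-0.63) as total. sha-miR-125a_R+2 had 229 and 426 NE, a log2 ratio of -0.90. The other entries of these miRNAs, 3 of the 3p arm and 1 longer form of miR-125b, lay between -0.72 and -0.19. Of these, the 5p ratios of miR-99a, miR-99b and miR-125b rose above 0 with the clean reads as total, and those of miR-100 and miR-125a did so with the listed reads only.

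Among 55 other names with at least 1000 reads in both libraries, the 5 with a log2 ratio of NE nearest to that of the 5p sum were mmu-miR-99a-3p_R+2_1ss9TC at -0.56, cgr-miR-486-5p at -0.68, cgr-miR-23b-3p at -0.42, oar-miR-103_R-1 at -0.68 and hsa-miR-125b-5p at -0.70. Likeness is the difference of log2 ratios over 2 libraries.

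Markers of cell types also differed between the libraries. Of 11 epithelial miRNAs, 10 had an entry and miR-200b was not analysed here. Their summed level was 38573 NE in R and 6977 NE in P, led by hsa-miR-141-3p_R-1 (28337 and 5791 NE). Of 9 names of muscle miRNAs, 6 had an entry, among them miR-499a, while miR-133b, miR-206 and miR-499 without a letter had none, and the sum was 292640 NE in R and 1883319 NE in P. Nearly all of it was aja-miR-143_1ss22GT (289634 and 1866274 NE), and hsa-miR-1_1ss1TC had 0.430 NE in R against 20.9 NE in P. Of the blood cell miRNAs, miR-223 had 1 read in R and was at 0 in P, where a count of 0 allows up to 3 reads. The 5 of 6 with an entry, all but miR-150, summed to 12220 NE in R and 12134 NE in P. On the scale of NE this near-equal sum joins opposite values: cgr-miR-142-5p_L-2R+1, the most abundant in R, had 5689 NE in R against 2524 NE in P, and cgr-miR-486-5p, the most abundant in P, had 5052 NE in R against 8073 NE in P. Both miR-142 entries were called higher in R. The log2 ratio of cgr-miR-486-5p was 0.11 with the clean reads and 0.85 with the listed reads as total, so it then lay on the same side as miR-142. The 3 fibroblast miRNAs, led by oar-miR-199a-3p, summed to 97321 and 97156 NE, where bta-miR-199b had 7929 NE in R against 4238 NE in P (log2 ratio 0.90) and hsa-miR-214-3p 1099 against 669 NE (0.72), while hsa-miR-199b-5p_R-1_2ss10TC17TC had -0.24. miR-126 of endothelium summed to 32840 and 21287 NE. The near-equal sums hold for NE only: with the clean reads as total the log2 ratio was 0.79 for both blood cells and fibroblasts, and with the listed reads it was 1.53 for both. These sums count a name listed several times once, at its NE. Summed over its entries, cgr-miR-142-5p_L-2R+1 had 13233 reads in R and 4340 in P, more than that NE stands for. The blood cell sum, and its nearness to that of fibroblasts, therefore depends on this choice. The sums of epithelium, muscle and endothelium kept their direction under these scalings. No other marker miRNA was at 0 in a library in all of its entries. Of the epithelial entries, 3 were at 0 in P, those of miR-182-3p, miR-183-3p and miR-203-5p, with 2, 1 and 5 reads in R. Their part in the differences of the let-7 family was not tested.

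The authors' comparison across 23 species lists precursor names of let-7a in 13 species, let-7b in 12, let-7f in 11, let-7d and miR-98 in 10, let-7c and let-7g in 9, let-7e in 8 and let-7i in 6. Precursors of all 9 members were thus matched, although 6 members gave their name to an entry. The authors predicted targets only for the miRNAs they called differentially expressed. The 142 names with predicted targets included 0 names of the family, so this count tells nothing about the targets of the family.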

How the data were processed

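The authors mixed 9 samples per phase into 3, sequenced small RNA 3 times and deposited the values as 1 library per phase. They removed adapters, junk, other RNA classes and repeats and matched the remaining reads to miRBase precursors. By the paper's text at most 1 mismatch was allowed, but some listed names carry 2 substitutions, among them oar-let-7a_2ss11GA19AT. They deposited a normalized signal (NE) per miRNA and library, which does not follow the paper's formula, a share of the clean reads. Within a library each read adds the same amount to NE, and reads were recovered by dividing by that amount. Among values above 20 reads, 89.4% were whole (tolerance 0.001 read) for entries alone in name and sequence, and 46.7% for the others, as when reads are divided among entries. Library letters follow the known miRNA table, whose values equal those of the differential expression table for all 340 shared names. The candidate table has these letters reversed, and its 2 value columns were not used. The fold, log2 and P-value columns of the authors' comparison were not used.

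A name listed several times was counted at its NE, with reads summed. Fisher's exact test (two-sided) used rounded reads against the clean reads of the paper. Ratios have 95% exact intervals, shares Clopper-Pearson intervals, and odds ratios normal-approximation intervals. The floor was 3 reads, 2.58 NE in R and 3.49 NE in P. Arms without a label were assigned by 12 shared bases. The miRNAs named were every family entry, cluster neighbours (miR-99a, miR-99b, miR-100, miR-125a, miR-125b), names with the let-7 seed or of miR-202, miR-4458 and miR-4500, the 5 most abundant names per library, and the 5 abundant names nearest the family sum. Some members of the lists of cell type markers were named as well. Members and lists were chosen with earlier results of these data known. Alternatives were other scalings, filters, tests, pseudocounts and assignments of entries. The code for calls, intervals and arm tests was run on simulated data as a check of the code, and no result given here rests on that. Python 3.11.15, numpy 2.4.6, scipy 1.17.1, matplotlib 3.10.9 and ViennaRNA 2.7.2 were used. Gene names and neighbours come from RefSeq (assembly ARS1.2).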

Additional observations from a re-analysis of the deposited data

How the results depend on the processing

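The scaling between the libraries decided the direction of the 5p sum and of 8 of the 9 5p names, all but mmu-let-7c-5p_R+2_1ss17AG, since each scaling adds 1 constant to every log2 ratio. The 5p sum had a log2 ratio of 0.24 with the clean reads as total, 0.98 with the listed reads, -0.044 with the listed reads without miR-143, miR-10a and miR-10b, and -0.58 with the median set to 0. The 3p sum had 1.14, 1.88 and 0.86 under the first 3 of these. With the clean reads, oar-let-7a moved to 0.22, oar-let-7b_R+1 to 0.61, sha-let-7i_R+1 and mmu-let-7i-5p to 0.19, oar-let-7a_2ss11GA19AT to 0.26 and bta-let-7d to 0.46. With the listed reads these became 0.96, 1.35, 0.93, 0.93, 1.00 and 1.20, and oar-let-7c and oar-let-7b_R+2 became 0.73. Without the 3 miRNAs, oar-let-7b_R+1 was at 0.33 and bta-let-7d at 0.18.

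The family names called numbered 5, 11 and 3 with the clean reads, the listed reads and the listed reads without the 3 miRNAs, in place of 0. Of all known names, 121 were called, with 69.4% of them higher in R. The listed reads gave 266 calls (96.2% higher) and at least 10 reads in both libraries gave 77, where fewer names were tested. The clean reads gave 177 calls (89.3% higher), the listed reads without the 3 miRNAs 139 (83.5%) and the exact binomial test 119 (58.8%). Shares and the arm counts do not depend on the scaling. The count of 35 of 90 hairpins lay between 29 and 36 under its 4 alternatives, where the 29 are of only 57 hairpins with at least 50 reads. Without replicates, the spread between goats or pools is unknown. The 3p names of miR-98 and let-7c had at most 34 reads each in P, which limits their ratios.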
